A study of Vitis vinifera with 171 samples.

Results

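The genes VIT_03s0088g00690, VIT_03s0088g00700 and VIT_03s0088g00710 encode pathogenesis-related protein 1 (PR1) and lie in one block of chromosome 3 of the grapevine genome. They were chosen by their identifiers, each read through the set of 4 array probes that carries it, and they are 3 of 29,544 probe sets. PR1 proteins are small secreted proteins that many plants accumulate after infection, and their transcripts are widely used as a marker of the salicylate response. In tobacco and tomato, PR1 proteins bind sterols and act against oomycetes. Ripening grape berries are known for accumulating other pathogenesis-related proteins, mainly chitinases and thaumatin-like proteins, which later form haze in wine.

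The berries came from clone 48 of the red cultivar Corvina, so the groups share 1 clonal genotype and differ in vineyard, year and stage. In 2008 the fruit of 11 vineyards was sampled, and AM, CS, MN and PSP were also sampled in 2006 and 2007. BA, CS, GIV and VM lie in the Bardolino macro-area, BM, FA, MN and PSP in Valpolicella, and AM, CC and PM in Soave. Each vineyard gave 3 biological replicates (A, B and C) at veraison, which is the onset of ripening, at mid-ripening and at harvest. RNA was taken from whole berries without seeds, and per the study's methods berries with visible damage or infection were avoided. The labels name no inoculation or other treatment, and a vineyard is 1 site, so its soil, training system and microclimate cannot be told apart. The 57 groups were read on 171 single-color arrays spread over 19 slides.

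Expression is given as the log2 of the mean Cy3 intensity of a gene's probes, and a difference of 1 on this scale is a doubling. No background was subtracted from the deposited values. Random control probes set the background of each array, at the value that 95% of them did not exceed, which lay between 5.17 and 9.42 (median, 6.91), and a gene below it on an array was not measurably expressed there. The pigment regulator VvMYBA1 (VIT_02s0033g00440), a marker of colored skin, exceeded the background on 30, 33 and 31 of 33 arrays at veraison, mid-ripening and harvest in 2008, and the ripening marker grip22 (VIT_06s0004g02560) did so on all 33 arrays of each 2008 stage. At veraison in 2007, VvMYBA1 averaged 8.23 ± 2.20 and grip22 11.34 ± 3.24 (SD, n = 4 vineyards), and vineyard MN was lowest for both, at 4.95 and 6.78. For the PR1 genes, values without MN are given beside the comparisons of 2007 whose call or sign changed with it. None are given for the 2 markers. In these bulk samples, fewer cells of a type and less RNA per cell cannot be told apart.

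The 3 PR1 genes were below or near background on many arrays at veraison in 2008, and at harvest they exceeded it on 31 (VIT_03s0088g00690) or 32 of 33 arrays. VIT_03s0088g00710 had its lowest veraison mean in VM (5.64 ± 0.11, SD, n = 3) and its highest in BM (8.76 ± 0.33), with a mean over the 11 vineyards of 7.18 ± 1.05. It exceeded the background on 16 of 33 arrays, among them all 3 of BM, FA and PSP. The group means of VIT_03s0088g00700 ran from 6.17 in VM to 8.29 in BM (18 of 33 arrays), and those of VIT_03s0088g00690 from 5.45 in GIV to 7.15 in AM (8 of 33 arrays).

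At mid-ripening the vineyards spread widely. VIT_03s0088g00710 averaged 11.16 ± 1.79 (SD, n = 11), with 7.68 in PM at the low end and 13.47 in CS at the high end. VIT_03s0088g00700 averaged 10.51 ± 1.78 and VIT_03s0088g00690 9.19 ± 1.56, again with PM lowest (7.39 and 6.46) and CS highest (13.33 and 11.47). Without replicate C, BM lay below PM for VIT_03s0088g00710 (7.57) and VIT_03s0088g00690 (6.18). At harvest the means were 13.20 ± 1.05 for VIT_03s0088g00710, 13.15 ± 1.18 for VIT_03s0088g00700 and 11.13 ± 1.22 for VIT_03s0088g00690. PM had the lowest means, at 10.71, 10.35 and 8.35, with replicate A below background for all 3 genes. Without that array its means were 12.24, 12.00 and 9.22, and for the first gene FA was then lower (12.07). By the means of 3 arrays, the highest vineyard was MN for the first gene (14.14) and BA for the others (14.25 and 12.61).

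**Figure D1:**
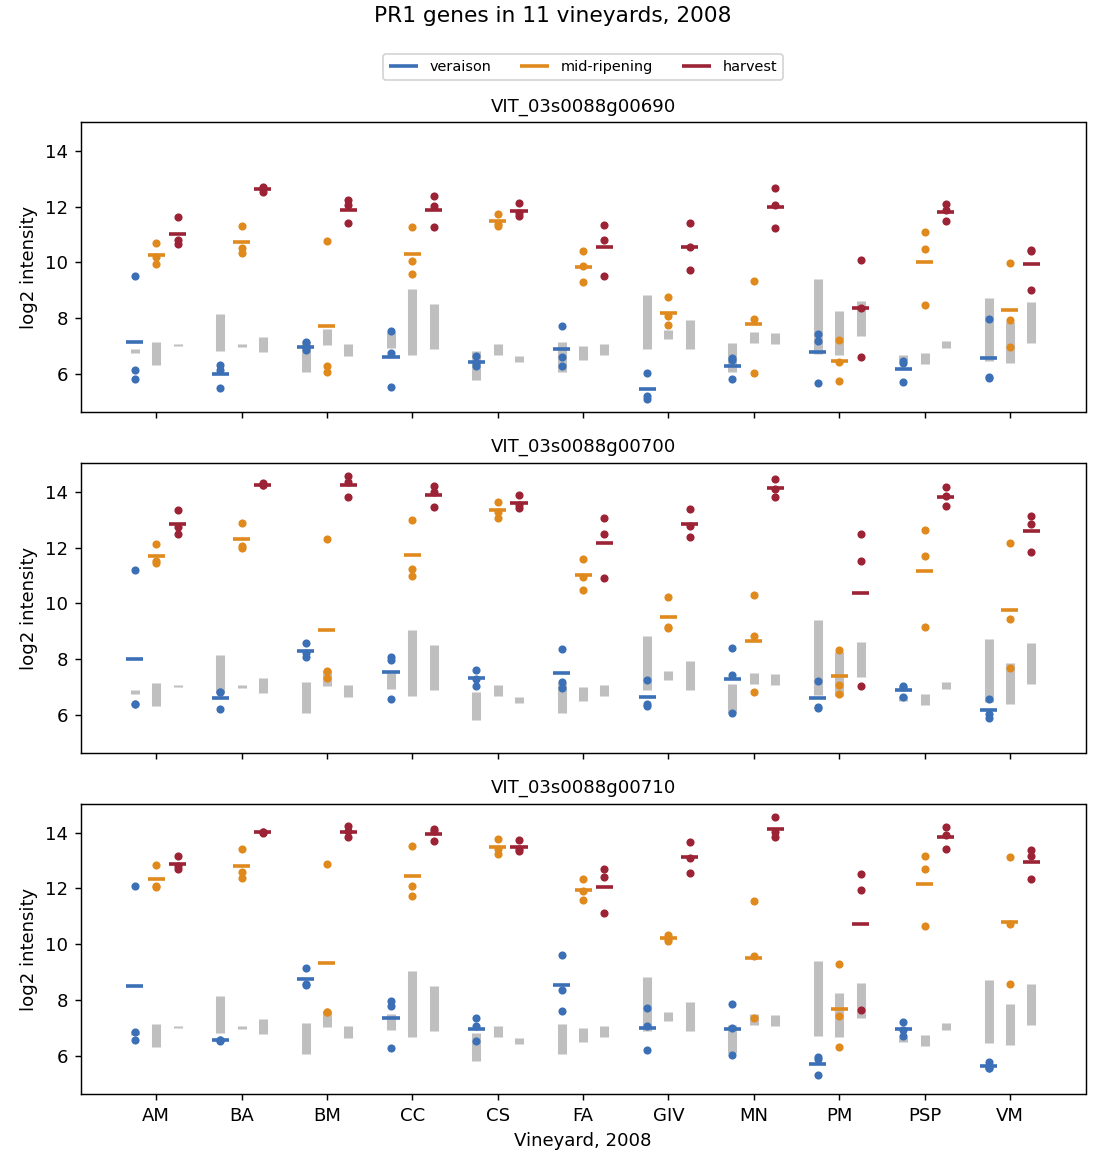
Log2 intensity of the 3 PR1 genes (one panel each) in the 11 vineyards of 2008. Points are single arrays colored by stage, short lines are means of 3 arrays, and gray bars span the background of those arrays. All harvest means of VIT_03s0088g00710 lie at 10.71 or above, and its veraison means at 8.76 or below.

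From veraison to mid-ripening in 2008, all 3 genes rose. The rise was 3.97 (log2; standard error 0.46, adjusted p = 2.57e-07) for VIT_03s0088g00710, 3.34 (0.43, adjusted p = 1.46e-06) for VIT_03s0088g00700 and 2.70 (0.41, adjusted p = 1.11e-05) for VIT_03s0088g00690, from limma on the means of 11 vineyards. VIT_03s0088g00710 ranked 1 of 29,544 probe sets by the size of this increase, VIT_03s0088g00700 10 and VIT_03s0088g00690 39. Of all probe sets, 23.4% passed the test (adjusted p under 0.05) in the upward direction. The study had singled out VIT_03s0088g00690 and VIT_03s0088g00710 on these same samples, so their rise in 2008 is not independent evidence. It lists them as non-plastic markers, meaning genes that rise alike in all vineyards. That label came from other tests than the vineyard comparisons below. The gain of VIT_03s0088g00710 was largest in CS (6.49). It was smallest in BM (0.58), where it rests on replicate C at mid-ripening: without that array the difference was -1.19 (-0.85 for VIT_03s0088g00700 and -0.80 for VIT_03s0088g00690). By the means of all arrays, VIT_03s0088g00690 was lower at mid-ripening in PM (-0.31) and higher in the other vineyards. Leaving out any 1 replicate letter or vineyard kept the 3 calls, with a rise of 3.72 to 4.31 for VIT_03s0088g00710.

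From mid-ripening to harvest in 2008, the genes rose again, by 2.05 (0.46, adjusted p = 0.000955) for VIT_03s0088g00710, 2.65 (0.43, adjusted p = 3.79e-05) for VIT_03s0088g00700 and 1.94 (0.41, adjusted p = 0.000578) for VIT_03s0088g00690. Here 18.7% of all probe sets passed the test upward. Each gene was higher at harvest in 11 of 11 vineyards. CS, already bright at mid-ripening, added only 0.01 to VIT_03s0088g00710, 0.26 to VIT_03s0088g00700 and 0.38 to VIT_03s0088g00690. BM and MN, which were dim at mid-ripening, added most: 4.70 to VIT_03s0088g00710 in BM (6.47 without replicate C at mid-ripening), and 5.47 to VIT_03s0088g00700 and 4.20 to VIT_03s0088g00690 in MN. PM, the dimmest by the means of all arrays, added 3.03, 2.96 and 1.89 to VIT_03s0088g00710, VIT_03s0088g00700 and VIT_03s0088g00690. Without replicate A at harvest these were 4.56, 4.61 and 2.76. The mid-ripening value is subtracted in this step, so dim vineyards tend to gain more by construction.

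Most vineyard values at veraison included arrays below background, so the size of the full rise is uncertain there. Where all 3 veraison arrays were below it, only a lower bound can be given, smaller than the rise in the raw values. In BA, where all 3 veraison arrays were below background, VIT_03s0088g00700 was at least 110-fold higher at harvest (6.62 against 14.25), VIT_03s0088g00710 at least 93.8-fold and VIT_03s0088g00690 at least 35.5-fold. These bounds set each veraison array to its background or its own value, whichever was higher. In PM, the bounds were 3.72-fold for VIT_03s0088g00700 and 4.77-fold for VIT_03s0088g00710, and none could be given for VIT_03s0088g00690. Without harvest replicate A they were 11.7-fold, 13.8-fold and 1.69-fold for VIT_03s0088g00700, VIT_03s0088g00710 and VIT_03s0088g00690. Within single slides, veraison and mid-ripening arrays of the same vineyard could be compared in 11 cases from 10 vineyards, with VM on 2 slides and PM on none. VIT_03s0088g00710 was higher at mid-ripening in 11 of 11 cases, by 3.89 on average (0.58 to 6.37).

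From veraison to harvest in 2008, the set of VIT_03s0088g00710 rose by 6.02 ± 1.30 (SD, n = 11), that of VIT_03s0088g00700 by 5.98 ± 1.13 and that of VIT_03s0088g00690 by 4.64 ± 1.41. These rises do not rank the genes, since they start from veraison values often below background and average different probes.

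The probes of VIT_03s0088g00690 did not all respond. VitusP00177047 and VitusP00177050 exceeded the background on 2 and 1 of 171 arrays, and in 2008 they averaged 4.57 and 5.36 at veraison against 4.43 and 5.50 at harvest. VitusP00177051 and VitusP00177055 of the same set rose by 5.60 ± 1.55 and 4.24 ± 1.39 (SD, n = 11), in 11 of 11 vineyards each, and correlated with each other at r = 0.95 across 171 arrays. All 4 probes of VIT_03s0088g00700 rose by 5.72 to 6.49 and all 4 of VIT_03s0088g00710 by 5.90 to 6.67. Probes within these 2 sets correlated at r = 0.96 to 0.98. Probe sequences were not used here, so how far probes bind transcripts of neighboring PR1 copies was not tested.

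**Figure D2:**
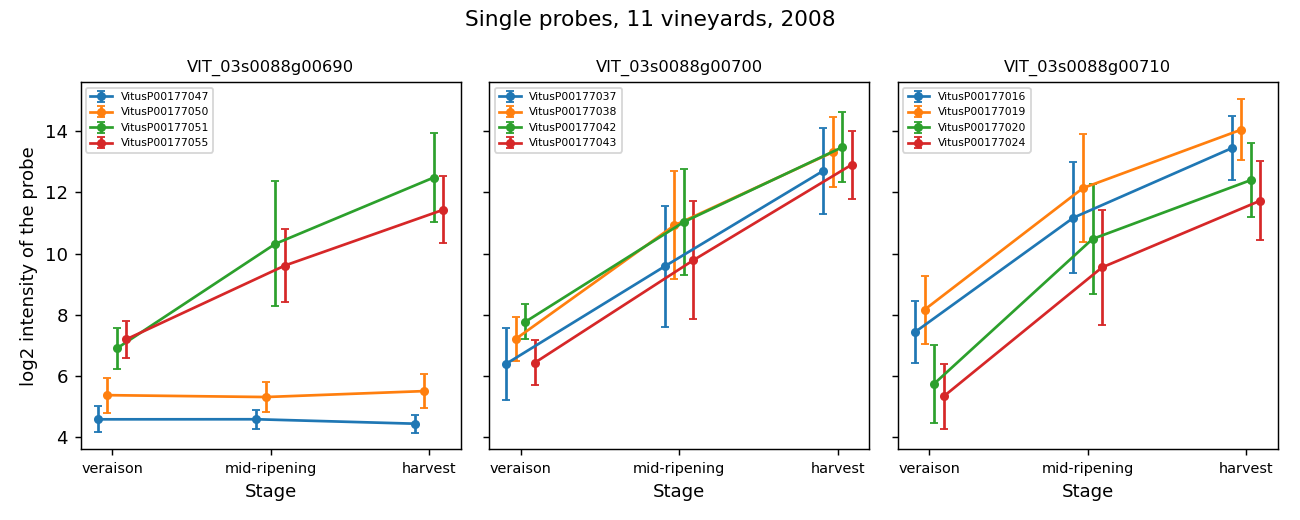
Log2 intensity of each of the 4 probes of the 3 PR1 genes at the 3 stages of 2008. Points are means over 11 vineyards and bars are the SD between vineyards; 2 probes of VIT_03s0088g00690 stay between 4.43 and 5.50 while all other probes climb.

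The seasons were compared in AM, CS, MN and PSP. In 2006, VIT_03s0088g00710 went from 6.06, 5.97, 6.18 and 5.98 at veraison (AM, CS, MN and PSP in this order) to 14.13, 14.11, 12.25 and 9.53 at mid-ripening, and to 13.89, 13.99, 13.35 and 12.04 at harvest. In 2008 the same vineyards had 8.51, 6.99, 6.98 and 6.96, then 12.33, 13.47, 9.5 and 12.17, then 12.88, 13.49, 14.14 and 13.85. In 2007 they had 4.95, 5.97, 7.50 and 8.75, then 5.24, 5.21, 6.85 and 6.95, then 9.47, 11.59, 11.55 and 9.12. The mid-ripening means of 2007 all lay below every mid-ripening mean of the other years, and in AM and CS none of the 6 arrays exceeded the background. VIT_03s0088g00700 and VIT_03s0088g00690 had the same shape, with 2007 mid-ripening means of 5.61 to 7.07 and 5.52 to 6.48.

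**Figure D3:**
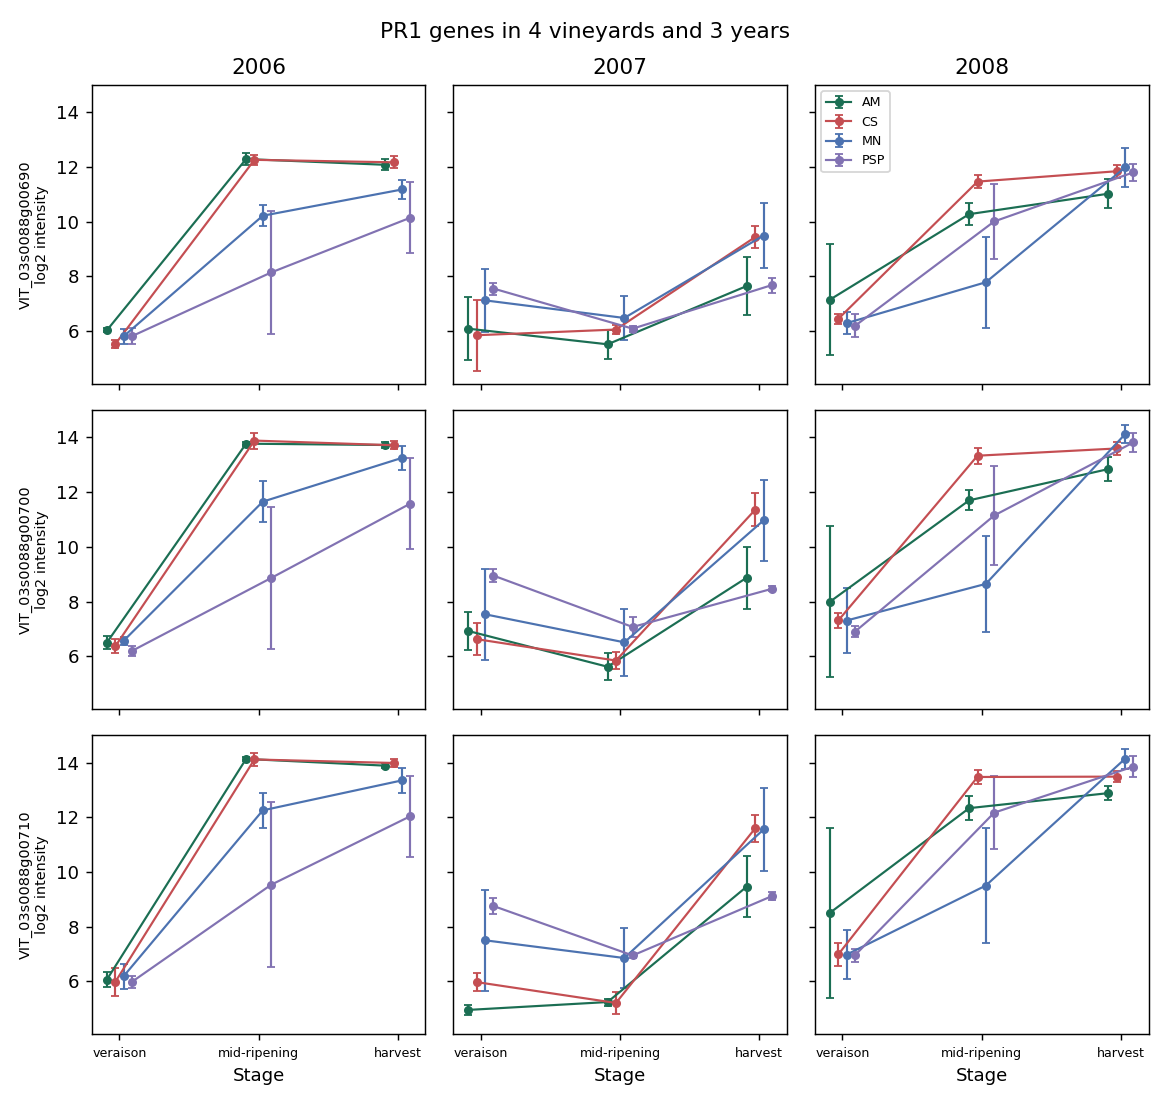
Log2 intensity of the 3 PR1 genes (rows) by stage in 2006, 2007 and 2008 (columns) for 4 vineyards. Points are means and bars the SD of 3 arrays; the 2007 lines stay flat or drop to mid-ripening, where VIT_03s0088g00710 lies at 6.95 or below.

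In 2006 the whole rise fell before mid-ripening in AM and CS. Over the 4 vineyards, VIT_03s0088g00710 rose from veraison to mid-ripening by 6.46 (standard error 0.64, adjusted p = 0.000188), VIT_03s0088g00700 by 5.64 (0.67, adjusted p = 0.000471) and VIT_03s0088g00690 by 4.94 (0.59, adjusted p = 0.000486), by limma. All 3 genes passed upward, against 16.1% of all probe sets. From mid-ripening to harvest the differences were 0.81, 1.03 and 0.67 and none passed (adjusted p = 0.549, 0.460 and 0.601), against 2.55% of all probe sets in either direction. PSP and MN were higher at harvest, by 2.51 and 1.10 for VIT_03s0088g00710, and PSP by 0.77 without replicate A at mid-ripening.

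In 2007 the rise came after mid-ripening. In PSP it led back to about the veraison level: harvest differed from veraison by 0.36 for VIT_03s0088g00710, -0.48 for VIT_03s0088g00700 and 0.13 for VIT_03s0088g00690. The differences from veraison to mid-ripening were -0.73, -1.25 and -0.62 for VIT_03s0088g00710, VIT_03s0088g00700 and VIT_03s0088g00690 (adjusted p = 0.531, 0.267 and 0.385 by limma), where 9.64% of all probe sets passed. VIT_03s0088g00700 was lower in 4 of 4 vineyards. It passed in limma fits on single arrays, with vineyard and replicate letter as a block (-1.25, adjusted p = 0.0493) or the slide as a random block (-1.34, adjusted p = 0.0216). These fits count the 3 arrays of a vineyard and stage as separate samples, although they share 1 vineyard, so these passes overstate the evidence. From mid-ripening to harvest the genes rose by 4.37 (0.71, adjusted p = 0.0282), 3.66 (0.69, adjusted p = 0.0453) and 2.53 (0.44, adjusted p = 0.0345), and 0.406% of all probe sets passed upward. In CS, VIT_03s0088g00710 was at least 12.9-fold higher at harvest than at mid-ripening, and in AM at least 3.91-fold. These 3 calls rest on few samples: leaving out AM, CS or MN ended each of them, with adjusted p from 0.0773 to 0.233. The call of VIT_03s0088g00690 was also lost without PSP (0.0673), replicate B (0.0602) or replicate C (0.0740), and that of VIT_03s0088g00700 without replicate A (0.0517), B (0.0503) or C (0.0740). With values below background raised to it, the call was lost for VIT_03s0088g00700 (2.55, adjusted p = 0.0900) and VIT_03s0088g00690 (1.53, adjusted p = 0.112).

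The difference between the seasons was itself tested. The study lists VIT_03s0088g00690 and VIT_03s0088g00700 among its genes that differ after veraison between 2007 and the other seasons. That list comes from these same samples, so the season differences of these 2 genes, here and by level, are not independent evidence. From veraison to mid-ripening, the change of 2007 was lower than the mean change of 2006 and 2008 by 6.22 (standard error 0.78, adjusted p = 0.00653) for VIT_03s0088g00710, 5.98 (0.77, adjusted p = 0.00662) for VIT_03s0088g00700 and 4.77 (0.61, adjusted p = 0.00662) for VIT_03s0088g00690, by limma. Of all probe sets, 3.57% were called lower. Without CS the adjusted p was 0.0575, 0.0598 and 0.0606. From veraison to harvest the 2007 rise was lower by 3.11 (0.79, adjusted p = 0.0487), 4.03 (0.71, adjusted p = 0.0186) and 3.46 (0.50, adjusted p = 0.0117), with 3.07% of all probe sets called lower. Without CS or without MN these 3 calls were lost (adjusted p from 0.0539 to 0.180). That of VIT_03s0088g00710 was also lost without AM (0.0538), PSP (0.112), replicate A (0.0828) or replicate B (0.141), with the median of the probes (0.0589) and with quantile normalized gene values (0.0511).

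By level, the 3 genes were lower in 2007 at mid-ripening and at harvest but not detectably so at veraison. At mid-ripening, VIT_03s0088g00710 was lower than in 2006 and 2008 by 6.13 (standard error 0.93, adjusted p = 0.0199), VIT_03s0088g00700 by 5.37 (0.90, adjusted p = 0.0256) and VIT_03s0088g00690 by 4.27 (0.70, adjusted p = 0.0246), by limma, where 2.16% of all probe sets were called lower. Without AM or without CS these calls were lost (adjusted p from 0.118 to 0.217). At harvest the differences were -3.02, -3.42 and -2.96 (adjusted p = 0.0145, 0.0132 and 0.0119; 2.12% of all probe sets called lower), and without CS none passed (0.0885, 0.0836 and 0.0931). Without AM, VIT_03s0088g00710 (0.0585) and VIT_03s0088g00700 (0.0514) did not pass. At veraison they were 0.09, 0.62 and 0.50 (adjusted p = 0.937, 0.336 and 0.339, 10.6% of all probe sets called), and PSP was the highest vineyard of 2007 for each gene (8.75, 8.95 and 7.56). The sign of VIT_03s0088g00710 turned without MN (-0.18, limma adjusted p = 0.892), without PSP (-0.64, 0.478) and without replicate A (-0.29, 0.812). Of the tissue markers, VvMYBA1 was lower in 2007 at veraison (-2.13, limma adjusted p = 0.0240). The difference of grip22 was -2.70 at veraison, where it was not called, and -1.02 at harvest (limma adjusted p = 0.0404). Neither marker was called at mid-ripening. Their part in the result was not tested. Between 2006 and 2008, no member was called at any stage (adjusted p from 0.329 to 1), and at veraison 3.86% of all probe sets were. At mid-ripening 0.00338% and at harvest 0% of all probe sets were called, with 1,768 and 2,319 probe sets at an unadjusted p under 0.05.

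On a slide that held veraison arrays of PSP from both years, 2007 was higher than 2006 by 2.77 for VIT_03s0088g00710, 2.75 for VIT_03s0088g00700 and 1.74 for VIT_03s0088g00690 (3 arrays each). No slide held mid-ripening or harvest arrays of 1 vineyard from 2 years, so slide and year cannot be told apart within a vineyard at those stages. On 1 slide with mid-ripening arrays of MN from 2007 and AM from 2006, the difference for VIT_03s0088g00710 was -7.10 (2 arrays against 1).

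Vineyards also differed within 2008. The arrays of a vineyard and stage mostly shared a slide, so vineyard and slide cannot be fully told apart in these tests. At harvest, the F test of 11 vineyards by limma on single arrays gave adjusted p = 0.00268 for VIT_03s0088g00710 (range of the vineyard means, 3.43), 0.00256 for VIT_03s0088g00700 (3.90) and 8.38e-05 for VIT_03s0088g00690 (4.26), where 74.7% of all probe sets were called. At mid-ripening the ranges were 5.79, 5.94 and 5.01 (adjusted p = 0.00232, 0.00136 and 0.00105, 68.6% called), and with the slide as a random block the calls were lost (0.10, 0.0598 and 0.0631). Without replicate B they were lost too (0.151, 0.102 and 0.142), as were those of VIT_03s0088g00710 (0.0616) and VIT_03s0088g00700 (0.0615) at harvest. At veraison only VIT_03s0088g00710 was called (range 3.12, adjusted p = 0.0259, 63.9% of all probe sets called), and raising values below background to it ended this call (adjusted p = 0.481), as did leaving out replicate A (0.185) or B (0.139). Most probe sets were called in these tests, so the calls say nothing particular to the PR1 genes. The size of the step from veraison to mid-ripening also differed between vineyards, over a range of 5.91, 5.26 and 5.33 (adjusted p = 0.00181, 0.00218 and 0.000450, 50.5% of all probe sets called), and that of the step to harvest over 4.69, 5.21 and 3.82 (0.0192, 0.0164 and 0.0417, 29.3% called). Without replicate B the calls of both steps were lost (from 0.0975 to 0.563), and without replicate A those of the step to harvest (from 0.0578 to 0.120). The Bardolino, Valpolicella and Soave macro-areas gave no call for the 3 genes at harvest (limma F test, adjusted p = 0.731, 0.705 and 0.762, with 0.345% of all probe sets called).

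The 3 replicates of a group often disagreed for these genes. In 21 of 57 groups the arrays spanned more than 2 log2 units for at least 1 member. This was not counted for other probe sets, so it is not shown to be particular to these genes. Some of these groups lay below background on every array, such as VIT_03s0088g00690 at veraison in AM and CS in 2007. At veraison in AM in 2008, VIT_03s0088g00710 read 6.86 and 6.56 in replicates A and B and 12.10 in C. At mid-ripening in BM it read 7.56, 7.57 and 12.88, and at harvest in PM 7.65, 11.95 and 12.53. The title and description of BM replicate B name 2007, whereas its source name gives 2008, which was used. In these 3 groups the PR10 gene VIT_05s0077g01530 split the same way (4.92, 4.91 and 10.27; 6.56, 7.50 and 11.01; 6.53, 10.48 and 10.91), while grip22 stayed within 13.44 and 14.76. Over all probe sets, AM replicate C, BM replicate C and PM replicate A differed from their partners by 0.245, 0.160 and 0.244 (median absolute log2 difference), against a median of 0.189 and a maximum of 0.354 over the 171 arrays. PSP at mid-ripening in 2006 differed: VIT_03s0088g00710 read 6.06, 11.01 and 11.52, and PR10 9.67, 9.29 and 9.96. Over all 57 groups, ordered by the mean, neighbors in the order overlapped in 56 of 56 pairs for VIT_03s0088g00690 and VIT_03s0088g00700 and in 55 of 56 for VIT_03s0088g00710. The order of nearby groups is thus not resolved, and such overlaps were not counted for other probe sets.

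The members followed each other closely. Over the 57 group means, VIT_03s0088g00690 and VIT_03s0088g00700 correlated at r = 0.99, VIT_03s0088g00700 and VIT_03s0088g00710 at 0.99, and VIT_03s0088g00690 and VIT_03s0088g00710 at 0.97. These are correlations across groups that share vineyards, slides and the ripening course, and the median over all probe sets was between -0.04 and -0.03. Besides each other, the 5 closest profiles of every member held VIT_06s0004g01030 and VIT_06s0004g01020, annotated as dirigent proteins, which guide the coupling of phenoxy radicals (r = 0.97 to 0.98). The remaining profile was the PR1 gene VIT_03s0088g00750 for VIT_03s0088g00690 (r = 0.98, above both dirigent proteins), the copper amine oxidase VIT_05s0020g03280 for VIT_03s0088g00700 and the PR1 gene VIT_03s0088g00810 for VIT_03s0088g00710.

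Not every probe set of the block took part. In the order of the probe numbers, the PR1 genes VIT_03s0088g00750, VIT_03s0088g00780 and VIT_03s0088g00810 rose from veraison to mid-ripening in 2008 by 2.60, 2.85 and 2.37 (limma, adjusted p = 4.22e-06, 1.36e-05 and 0.000120), and were lower in 2007 at mid-ripening by 4.00, 4.94 and 4.24 (adjusted p = 0.0201, 0.0232 and 0.0281). VIT_03s0088g00730, annotated as a methionine sulfoxide reductase, was 0.15 higher at mid-ripening (adjusted p = 0.385). An unnamed probe set between VIT_03s0088g00700 and VIT_03s0088g00710 fell, by 0.73 from veraison to mid-ripening and by 1.01 from there to harvest (limma, adjusted p = 2.51e-06 and 4.43e-08), from 11.29 ± 0.36 over 10.56 ± 0.33 to 9.56 ± 0.30 (SD, n = 11). Its profile correlated with those of the 3 members at r = -0.78 to -0.81. This probe set was singled out after its values were seen. The unnamed set on the other side of VIT_03s0088g00710 correlated with the members at r = 0.71 to 0.77. For the unnamed sets past VIT_03s0088g00690, r lay between -0.33 and -0.14.

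**Figure D4:**
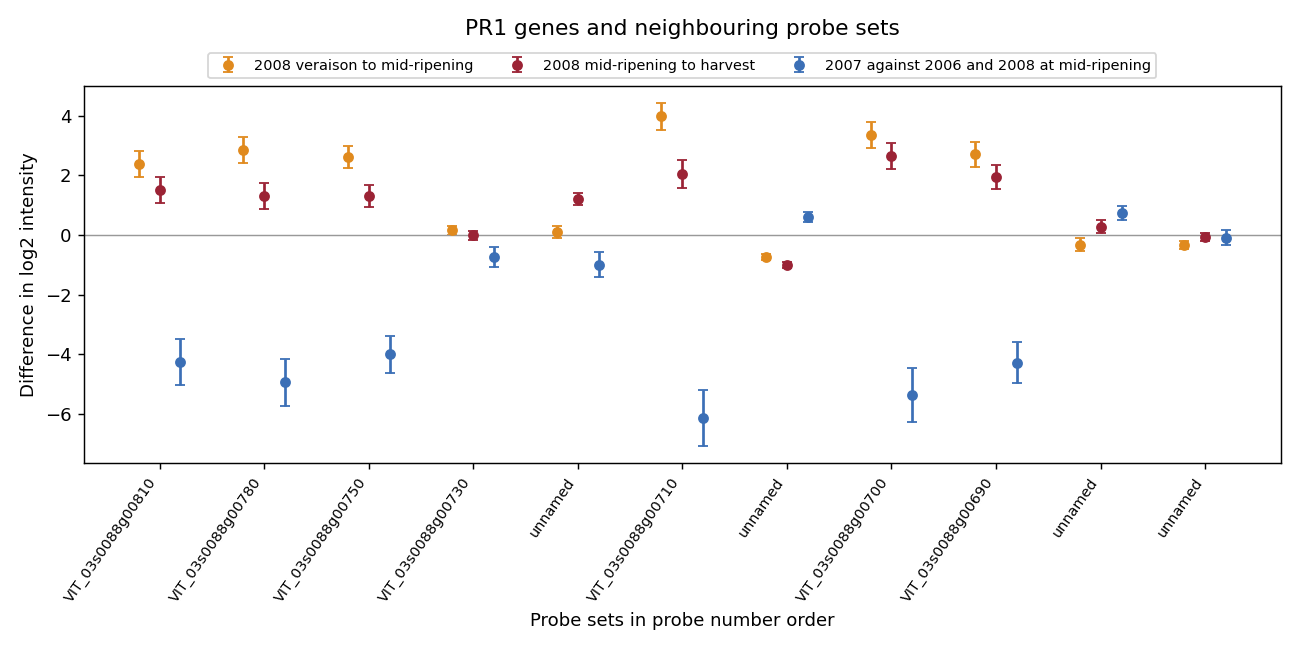
Differences in log2 intensity, with standard errors from limma, for the PR1 genes and neighboring probe sets in the order of their probe numbers. The 3 members and 3 further PR1 genes rise in 2008 and are lower in 2007 at mid-ripening; the set between VIT_03s0088g00710 and VIT_03s0088g00700 falls by 0.73 and 1.01.

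Other defense genes were followed beside the PR1 genes, and 38 of 39 listed genes were matched to a probe set. The lists hold the genes of these annotations in the study's supplementary datasets. Several of those datasets list genes that changed in these same samples. The counts of listed genes are therefore not independent of that choice, and the shares of all probe sets are no fair baseline for them. The PR10 gene VIT_05s0077g01530, a ribonuclease-like protein, rose by 2.97 and 2.90 in the 2 steps of 2008 (limma, adjusted p = 0.000164 and 0.000268) and was lower in 2007 at mid-ripening by 5.22 (adjusted p = 0.0294). The PR2 glucanase VIT_06s0061g00120, which cleaves fungal cell walls, rose by 2.86 from veraison to mid-ripening (limma, adjusted p = 9.80e-06) and was 3.46 lower in 2007 at mid-ripening (adjusted p = 0.0492). Its 2008 step to harvest was 0.27 and was not called. The Bet v I gene VIT_01s0011g05190 fell in both steps of 2008, by 1.90 and 1.10 (limma, adjusted p = 4.16e-05 and 0.00905). Its difference in 2007 at mid-ripening was 0.82 and was not called.

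From veraison to mid-ripening in 2008, 23.4% of all probe sets were called higher and 23.6% lower, with a median difference of -0.02. Of 10 chitinases, which cleave chitin, 6 rose, 2 fell and 2 did not pass (median 0.26). The class III chitinase VIT_16s0050g02210 rose by 1.19 (adjusted p = 0.0190), and 2 of 10 were lower in 2007 at mid-ripening, where 2.16% of all probe sets were called lower. Of 8 osmotins and thaumatins, 6 rose and 1 fell in that step (median 0.53), and the osmotins VIT_02s0025g04250 and VIT_02s0025g04260 were 3.15 and 3.73 lower in 2007 at mid-ripening (adjusted p = 0.0250 and 0.0310). Of 14 genes of salicylate and jasmonate signaling and synthesis, 6 rose, 3 fell and 5 did not pass (median 0.66). In 2007 at mid-ripening, these 14 genes (median -0.16) and 6 of 8 osmotins and thaumatins were not called. In the 2008 step to harvest, 18.7% of all probe sets were called higher and 18.1% lower. There, 9 of 10 chitinases, 5 of 8 osmotins and thaumatins and 9 of 14 salicylate and jasmonate genes were not called. Of the others, 1 chitinase fell, 3 osmotins and thaumatins rose, and 1 salicylate or jasmonate gene rose and 4 fell.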

How the data were processed

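RNA of berry pericarp was hybridized to 171 single-color arrays, 3 for each of 57 groups, and groups were taken from the sample labels. The authors deposited linear Cy3 intensity values per probe after quantile normalization of the whole array set (RMA per the labels), and no background was subtracted here. Array number limits the precision.

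Probe numbers were tiled into 29,544 sets of 4 probes (85 with fewer), and a gene's value is the log2 of its mean intensity. Simulated sets were rebuilt in 2000 of 2000 cases. Genes were named by matching the profile of a set to the supplementary datasets (r of at least 0.95, or 0.99 for 12 columns, and a lead of 0.01) or their stage averages, and the 3 members matched the sets given for them. Values of those datasets were used for nothing else.

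Stage steps and years were fitted with limma on triplicate means with vineyard as a term, and vineyards with limma F tests on single arrays, over all sets with Benjamini-Hochberg adjustment (adjusted p under 0.05). In simulated data with 200 changed sets of 29,544, a difference of 1 (log2) was recovered in 99% for the 2008 step to mid-ripening, 42% for that of 2007 and 70% for 2007 against the other years at harvest, and a difference of 2 in 100%. Of the calls, 5.69%, 4.70% and 8.60% were false in this order. The simulated sets varied less between vineyards than the members, whose 2008 step to mid-ripening had an SD of 1.65 to 1.85 (n = 11). These recovered shares therefore do not apply to the members. A planned exact sign-flip test of the rises of different members is not used, since probes and background set those rises in part.

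The members, the lists, the rule for named genes (members, their 5 closest profiles and listed defense genes) and the tests were chosen with earlier results of these data known. Alternatives were the median of the probes, 50 added to every intensity, quantile normalized gene values, sets above background, values raised to background, single probes, blocks for replicate or slide, and leaving out a replicate, a vineyard or, after the data were seen, 1 array that stood apart. The replicate letters did not pair the samples: deviations from group means correlated at a median of 0.01 for the same letter (171 pairs) and -0.01 for different letters (342 pairs). No 2 arrays were duplicates. Tests ran in R 4.3.3 (limma 3.58.1, with statmod 1.5.0 for random blocks). The sets were rebuilt with numpy 2.4.6 and pandas 2.3.3 under Python 3.11.15, scipy 1.17.1 was used for the sign-flip test, and figures were drawn in matplotlib 3.10.9.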

Additional observations from a re-analysis of the deposited data

Results flagged for a closer look

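At veraison in 2008, the AM mean of VIT_03s0088g00710 (8.51) stood apart from the means of CS, MN and PSP among the 4 vineyards sampled in every year. Its gap made up more of the range than Dixon's 95% critical value allows, in 1 of 27 such sets tested, and chance gives about 1 in 20. The high mean rests on replicate C.

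The change to mid-ripening in 2007 differed from that of 2006 and 2008 by -6.22 for VIT_03s0088g00710, -5.98 for VIT_03s0088g00700 and -4.77 for VIT_03s0088g00690, and the change to harvest by -3.11, -4.03 and -3.46 (limma, tests of the difference itself). In 2008 the step from veraison to mid-ripening differed between the 11 vineyards over ranges of 5.91, 5.26 and 5.33, and the step to harvest over 4.69, 5.21 and 3.82 (limma F tests, chosen after seeing the data).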

How the results depend on the processing

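The blocks were fitted to single arrays, which counts the 3 arrays of a vineyard and stage as separate samples. In the steps and years the replicate block joined vineyard and letter. The number of probe sets called moved with the blocks. With the replicate letter as a block it was 16,146 (2006 veraison to mid-ripening, 9,975 in the text's fit), 7,618 (2006 mid-ripening to harvest, 753 in the text's fit), 11,691 (2007 veraison to mid-ripening, 2,847 in the text's fit), 6,882 (2007 mid-ripening to harvest, 321 in the text's fit), 13,329 (2007 against 2006 and 2008 at veraison, 3,137 in the text's fit), 7,888 (2006 against 2008 at veraison, 1,140 in the text's fit), 12,829 (2007 against 2006 and 2008 at mid-ripening, 1,220 in the text's fit), 2,167 (2006 against 2008 at mid-ripening, 1 in the text's fit), 12,985 (2007 against 2006 and 2008 at harvest, 1,366 in the text's fit), 3,472 (2006 against 2008 at harvest, 0 in the text's fit), 8,999 (the difference in the rise from veraison to mid-ripening, 2007 against 2006 and 2008, 1,952 in the text's fit) and 11,411 (the difference in the rise from veraison to harvest, 2007 against 2006 and 2008, 2,087 in the text's fit). The block made VIT_03s0088g00700 pass in the 2007 step to mid-ripening (-1.25, adjusted p = 0.0493) and changed no other call of a member. With the slide as a random block the counts were 17,664 (2006 veraison to mid-ripening), 9,685 (2006 mid-ripening to harvest), 11,427 (2007 veraison to mid-ripening), 8,145 (2007 mid-ripening to harvest), 13,323 (2007 against 2006 and 2008 at veraison), 4,364 (2006 against 2008 at veraison), 6,541 (2007 against 2006 and 2008 at mid-ripening), 289 (2006 against 2008 at mid-ripening), 6,075 (2007 against 2006 and 2008 at harvest), 1,052 (2006 against 2008 at harvest) and 10,941 (vineyards in 2008 at mid-ripening). With values below background raised to it they were 233 (2006 mid-ripening to harvest), 1,828 (2007 veraison to mid-ripening), 396 (2007 against 2006 and 2008 at mid-ripening) and 791 (2007 against 2006 and 2008 at harvest). With only probe sets above background they were 515 (2007 mid-ripening to harvest) and 176 (macro-areas in 2008 at harvest). With 50 added to every intensity they were 162 (macro-areas in 2008 at harvest). Calls or signs of the members that changed with the slide block were -1.34 for VIT_03s0088g00700 (2007 veraison to mid-ripening, adjusted p = 0.0216), 3.11 for VIT_03s0088g00710 (vineyards in 2008 at veraison, adjusted p = 0.0729), 4.55 for VIT_03s0088g00690 (vineyards in 2008 at mid-ripening, adjusted p = 0.0631), 5.36 for VIT_03s0088g00700 (vineyards in 2008 at mid-ripening, adjusted p = 0.0598) and 5.18 for VIT_03s0088g00710 (vineyards in 2008 at mid-ripening, adjusted p = 0.1). Calls or signs of the members that changed with values raised to background were 1.53 for VIT_03s0088g00690 (2007 mid-ripening to harvest, adjusted p = 0.112), 2.55 for VIT_03s0088g00700 (2007 mid-ripening to harvest, adjusted p = 0.09), 0.91 for VIT_03s0088g00690 (2007 against 2006 and 2008 at veraison, adjusted p = 0.0478), 1.80 for VIT_03s0088g00710 (vineyards in 2008 at veraison, adjusted p = 0.481), 3.40 for VIT_03s0088g00690 (vineyard differences in the 2008 step from mid-ripening to harvest, adjusted p = 0.0636) and -0.10 for VIT_03s0088g00710 minus VIT_03s0088g00700 (the difference between members in the 2008 rise, adjusted p = 0.524). Calls or signs of the members that changed with the median of the probes were -0.0207 for VIT_03s0088g00710 (2007 against 2006 and 2008 at veraison, adjusted p = 0.988), -3.07 for VIT_03s0088g00710 (the difference in the rise from veraison to harvest, 2007 against 2006 and 2008, adjusted p = 0.0588), 2.89 for VIT_03s0088g00690 (vineyard differences in the 2008 step from mid-ripening to harvest, adjusted p = 0.219) and -0.0239 for VIT_03s0088g00710 minus VIT_03s0088g00700 (the difference between members in the 2008 rise, adjusted p = 0.929). Calls or signs of the members that changed after quantile normalization of gene values were -0.0229 for VIT_03s0088g00710 (2007 against 2006 and 2008 at veraison, adjusted p = 0.986) and -2.99 for VIT_03s0088g00710 (the difference in the rise from veraison to harvest, 2007 against 2006 and 2008, adjusted p = 0.0511). Calls or signs of the members that changed with 50 added were 2.27 for VIT_03s0088g00710 (vineyards in 2008 at veraison, adjusted p = 0.0549) and -0.00397 for VIT_03s0088g00710 minus VIT_03s0088g00700 (the difference between members in the 2008 rise, adjusted p = 0.985). Values are log2 differences, or ranges of the vineyard means where vineyards are compared. Signs turned for single probes as follows. VitusP00177016 alone gave -0.22 (2007 against 2006 and 2008 at veraison). VitusP00177019 alone gave -0.0123 (2007 against 2006 and 2008 at veraison). VitusP00177024 alone gave -0.15 (2007 against 2006 and 2008 at veraison). VitusP00177037 alone gave -0.0379 (2007 against 2006 and 2008 at veraison). VitusP00177042 alone gave -0.31 (2007 against 2006 and 2008 at veraison). VitusP00177047 alone gave -0.15 (2008 mid-ripening to harvest), -0.0459 (2006 veraison to mid-ripening), 0.13 (2006 against 2008 at veraison), -0.30 (2006 against 2008 at mid-ripening), 0.17 (2007 against 2006 and 2008 at harvest) and 0.17 (2006 against 2008 at harvest). VitusP00177050 alone gave -0.0611 (2008 veraison to mid-ripening), 0.21 (2007 veraison to mid-ripening), -0.0498 (2007 against 2006 and 2008 at veraison), 0.0692 (2007 against 2006 and 2008 at mid-ripening), 0.12 (2007 against 2006 and 2008 at harvest), 0.11 (2006 against 2008 at harvest), 0.12 (the difference in the rise from veraison to mid-ripening, 2007 against 2006 and 2008) and 0.17 (the difference in the rise from veraison to harvest, 2007 against 2006 and 2008). Leaving out 1 replicate letter or vineyard gave counts of 6,511 to 9,576 (2006 veraison to mid-ripening), 10 to 1,246 (2006 mid-ripening to harvest), 501 to 2,451 (2007 veraison to mid-ripening), 0 to 344 (2007 mid-ripening to harvest), 287 to 3,078 (2007 against 2006 and 2008 at veraison), 7 to 972 (2006 against 2008 at veraison), 0 to 2,610 (2007 against 2006 and 2008 at mid-ripening), 0 to 1 (2006 against 2008 at mid-ripening), 2 to 1,703 (2007 against 2006 and 2008 at harvest), 0 to 4 (2006 against 2008 at harvest), 148 to 1,405 (the difference in the rise from veraison to mid-ripening, 2007 against 2006 and 2008), 103 to 1,981 (the difference in the rise from veraison to harvest, 2007 against 2006 and 2008), 7,398 to 13,534 (vineyards in 2008 at veraison), 11,026 to 13,402 (vineyards in 2008 at mid-ripening), 10,867 to 15,567 (vineyards in 2008 at harvest), 0 to 171 (macro-areas in 2008 at harvest), 8,552 to 10,662 (vineyard differences in the 2008 step from veraison to mid-ripening) and 4,195 to 5,190 (vineyard differences in the 2008 step from mid-ripening to harvest). It gave these ranges for members of which a call or sign changed. 2007 mid-ripening to harvest lay at 2.19 to 2.92 for VIT_03s0088g00690, 3.04 to 4.41 for VIT_03s0088g00700 and 3.70 to 5.10 for VIT_03s0088g00710. 2007 against 2006 and 2008 at veraison lay at -0.64 to 0.90 for VIT_03s0088g00710. 2007 against 2006 and 2008 at mid-ripening lay at -4.85 to -3.76 for VIT_03s0088g00690, -6.18 to -4.57 for VIT_03s0088g00700 and -6.87 to -5.31 for VIT_03s0088g00710. 2006 against 2008 at mid-ripening lay at -0.0658 to 1.73 for VIT_03s0088g00710. 2007 against 2006 and 2008 at harvest lay at -3.37 to -2.48 for VIT_03s0088g00690, -3.86 to -2.83 for VIT_03s0088g00700 and -3.45 to -2.47 for VIT_03s0088g00710. 2006 against 2008 at harvest lay at -0.71 to 0.19 for VIT_03s0088g00690, -1.0 to 0.0437 for VIT_03s0088g00700 and -0.70 to 0.24 for VIT_03s0088g00710. The difference in the rise from veraison to mid-ripening, 2007 against 2006 and 2008 lay at -5.16 to -4.47 for VIT_03s0088g00690, -6.56 to -5.46 for VIT_03s0088g00700 and -6.64 to -5.60 for VIT_03s0088g00710. The difference in the rise from veraison to harvest, 2007 against 2006 and 2008 lay at -3.96 to -3.0 for VIT_03s0088g00690, -4.74 to -3.16 for VIT_03s0088g00700 and -4.01 to -2.11 for VIT_03s0088g00710. Vineyards in 2008 at veraison lay at 3.26 to 3.84 for VIT_03s0088g00710. Vineyards in 2008 at mid-ripening lay at 4.73 to 5.33 for VIT_03s0088g00690, 5.66 to 6.25 for VIT_03s0088g00700 and 5.70 to 6.44 for VIT_03s0088g00710. Vineyards in 2008 at harvest lay at 2.29 to 4.98 for VIT_03s0088g00700 and 2.38 to 4.40 for VIT_03s0088g00710. Vineyard differences in the 2008 step from veraison to mid-ripening lay at 5.48 to 5.85 for VIT_03s0088g00690, 5.30 to 7.10 for VIT_03s0088g00700 and 4.95 to 8.09 for VIT_03s0088g00710. Vineyard differences in the 2008 step from mid-ripening to harvest lay at 3.79 to 5.12 for VIT_03s0088g00690, 5.30 to 6.56 for VIT_03s0088g00700 and 4.61 to 6.52 for VIT_03s0088g00710. The difference between members in the 2008 rise lay at -0.0354 to 0.0734 for VIT_03s0088g00710 minus VIT_03s0088g00700. The cause of these changes was not tested; fewer samples remain when a vineyard is left out, and values below background limit the veraison levels and the 2007 mid-ripening levels.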
